A study of Mus musculus with 20 samples.

Results

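The immediate-early response genes examined here were Fos, Fosb, Jun, Junb, Atf3, Egr1, Nr4a1, Ier2, Ier3 and Zfp36, 10 of the 46078 genes in the count table, chosen by name and matched through their Ensembl identifiers. All 10 were found, and all 10 passed the filter on low counts that left 21464 genes for testing. The counts describe the adipocyte translatome of mouse epididymal adipose tissue (epiAT), that is, the mRNA pulled down with tagged ribosomes. Every mouse, controls included, carried AdipoERCre, a tamoxifen-inducible Cre under the adiponectin promoter, and the NuTRAP allele, which labels ribosomes with GFP in cells where Cre has acted, and every mouse received tamoxifen.

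The short arm held 4 groups of 3 male mice. Group C was kept on chow to 18 weeks of age, group H had 12 weeks of high-fat diet (HFD) by the same age, group CC_s was kept on chow to 26 weeks, and group HC had 12 weeks of HFD followed by 8 weeks of chow, the weight-loss (WL) phase. The long arm held 4 groups of 2 mice. CC_l was on chow to 31 weeks, HH had 25 weeks of HFD at that age, CCC was on chow to 39 weeks, and HHC had 25 weeks of HFD and then 8 weeks of chow. The study states that control mice first ate a low-fat chow. For the WL phase it switched HC, CC_s, HHC and CCC to another, standard chow. C and CC_l thus differed from CC_s and CCC in chow as well as in age. The library labels of the arms carry different prefixes, whose meaning is not stated. Comparisons were therefore made with age-matched chow mice of the same arm, and a difference between arms cannot be told apart from whatever these prefixes mark. Each library was 1 mouse, and total counts ranged from 10710277 in HHC replicate 1 to 36738954 in HC replicate 1.

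Immediate-early genes are transcribed within minutes of a stimulus such as a growth factor, cytokine, hormone or stress, without new protein synthesis, through factors that are already present and become phosphorylated. Their mRNAs are short-lived, and most encode transcription factors that then act on later genes. Fos and Jun family proteins pair through leucine zippers to form AP-1, Atf3 is a stress-responsive relative that binds similar sites, and in fat tissue these genes are known to respond to hormones and to inflammation.

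The promoters of the genes on which the results turn are printed here because the signal pathways behind immediate-early induction act through short motifs close to the start site. The sequences are the 250 bases before the start site that RefSeq gives, on the coding strand, build GRCm38.p6, and windows were at hand for 8 of the 10 genes. Egr1 and Ier2 had no window. Capitals mark the cyclic AMP response half-site TGACG or its reverse complement CGTCA, and TATAAA.
Ier3, chr17:35821463-35821712, plus strand: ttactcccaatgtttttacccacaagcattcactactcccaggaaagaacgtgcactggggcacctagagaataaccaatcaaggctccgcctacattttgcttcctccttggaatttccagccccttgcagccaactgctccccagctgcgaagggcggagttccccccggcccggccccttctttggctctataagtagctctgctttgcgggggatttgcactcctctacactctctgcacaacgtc
Atf3, chr1:191183334-191183583, minus strand: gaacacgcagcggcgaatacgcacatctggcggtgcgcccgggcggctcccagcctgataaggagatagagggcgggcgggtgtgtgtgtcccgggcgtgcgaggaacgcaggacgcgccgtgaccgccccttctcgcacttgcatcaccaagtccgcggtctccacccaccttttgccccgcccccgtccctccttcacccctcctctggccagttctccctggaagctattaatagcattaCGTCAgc
Fos, chr12:85473640-85473889, plus strand: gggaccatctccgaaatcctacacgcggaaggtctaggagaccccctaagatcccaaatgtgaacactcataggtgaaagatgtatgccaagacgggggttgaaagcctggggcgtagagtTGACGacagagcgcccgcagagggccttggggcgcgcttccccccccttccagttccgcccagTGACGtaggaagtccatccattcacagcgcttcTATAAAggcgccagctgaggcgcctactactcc
Junb, chr8:84978749-84978998, minus strand: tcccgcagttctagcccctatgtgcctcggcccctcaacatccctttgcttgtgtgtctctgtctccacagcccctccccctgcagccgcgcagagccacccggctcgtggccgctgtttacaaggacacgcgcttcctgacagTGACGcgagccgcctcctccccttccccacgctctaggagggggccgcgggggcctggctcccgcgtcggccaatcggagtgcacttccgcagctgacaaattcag

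In windows that also took in the 50 bases after the start site, the half-site was found on either strand in 5 of the 8 genes (Atf3, Fos, Fosb, Junb and Nr4a1), against 20.8% of 32851 promoter windows of the same length. In Fos it lay 129 and 66 bases before the start site, in Junb 106 and in Atf3 7. The full response element TGACGTCA was in 0 of the 8 windows, against 1.79% of all windows, and the AP-1 motif TGANTCA in 0, against 7.81%. The EGR motif GCGNGGGCG was in 3 (Fosb, Nr4a1 and Zfp36), against 5.55%, a CArG box, the serum response element core, in 1 (Zfp36), against 1.63%, and TATAAA in 2 (Fos and Junb), against 13.6%. The TATAAA of Fos began 33 bases before the start site, and that of Junb at the start site, beyond the printed bases. The Ier3 window held none of the motifs searched. A match is a string of letters and says nothing of binding, and sites farther upstream were not searched.

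The libraries were first compared for markers of other cell types. Adipocyte markers were abundant in every library, with Adipoq between 493 CPM (counts per 1000000 counts of the TMM-scaled library) in HC replicate 3 and 8796 CPM in an HHC mouse. The summed level of 10 macrophage markers ranged from 207 to 367 CPM in C and from 551 to 3021 in H, from 213 to 279 in CC_s and from 496 to 1312 in HC, from 203 to 336 in CC_l and from 3124 to 4076 in HH, and from 694 to 790 in CCC and from 644 to 1255 in HHC. By the DEG rule used below, 6 of these 10 markers were higher in H, 6 in HC, 10 in HH and 0 in HHC. The 6 endothelial markers summed to between 1738 and 2008 CPM in H against 254 to 681 in C, and to between 84.6 and 105 in HHC against 240 to 537 in CCC. The 5 spermatid markers summed to 3114 CPM in CC_l replicate 1 and 434 in HC replicate 3, and to at most 90.8 elsewhere. The 4 epididymal epithelium markers summed to 1814 CPM in C replicate 1, and 4 nuclear-retained RNAs to between 20395 and 37596 CPM in C replicates 1 and 2, CCC replicate 2 and HC replicate 3, against at most 12402 in the other mice. Whether a change in an immediate-early gene lay in adipocytes or in the RNA of other cells was not tested, and fewer cells of a type and less RNA per cell cannot be told apart.

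Across the 10 genes, few changes passed the test. Genes were called differentially expressed (DEGs) by the study's rule of an unadjusted p under 0.01 together with a log2 fold change of 1 or more in either direction, in edgeR's quasi-likelihood test over all genes. Ier3 was lower in H than in C, and in HC Ier3 was lower and Atf3 higher than in CC_s. No gene of the 10 was called in HH against CC_l or in HHC against CCC. In H the 1 member that was lower stood against a background of 2.92% of all genes called lower, and the 0 members that were higher against 3.57%. In HC the background was 0.172% lower and 1.57% higher. In HH it was 1.88% lower and 4.92% higher, and in HHC 2.67% lower and 0.447% higher. The split of all calls moved with the scaling, with 14.3% higher in HHC under TMM and 27.0% under RLE size factors, and with DESeq2 42.9% in place of 55.0% in H, 60.6% in place of 72.4% in HH and 29.5% in HHC. None of the 10 passed a Benjamini-Hochberg adjusted p of 0.05 in edgeR, a threshold that 2.12% of all genes passed in H, 0% in HC, 2.07% in HH and 0% in HHC. At an unadjusted p under 0.05 the counts were 4 of 10 in H, 3 in HC, 2 in HH and 0 in HHC, beside 17.1%, 8.69%, 17.4% and 10.7% of all genes. DESeq2 called 2 members in H (Junb besides Ier3), 3 in HC (Fos besides Ier3 and Atf3), 2 in HH (Fos and Atf3) and 0 in HHC, where it called 10.3%, 3.46%, 11% and 5.64% of all genes. Of the members, 1, 1, 1 and 0 had a DESeq2 adjusted p under 0.05, beside 9.07%, 1.2%, 8.26% and 1.91% of all genes.

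**Figure D1:**
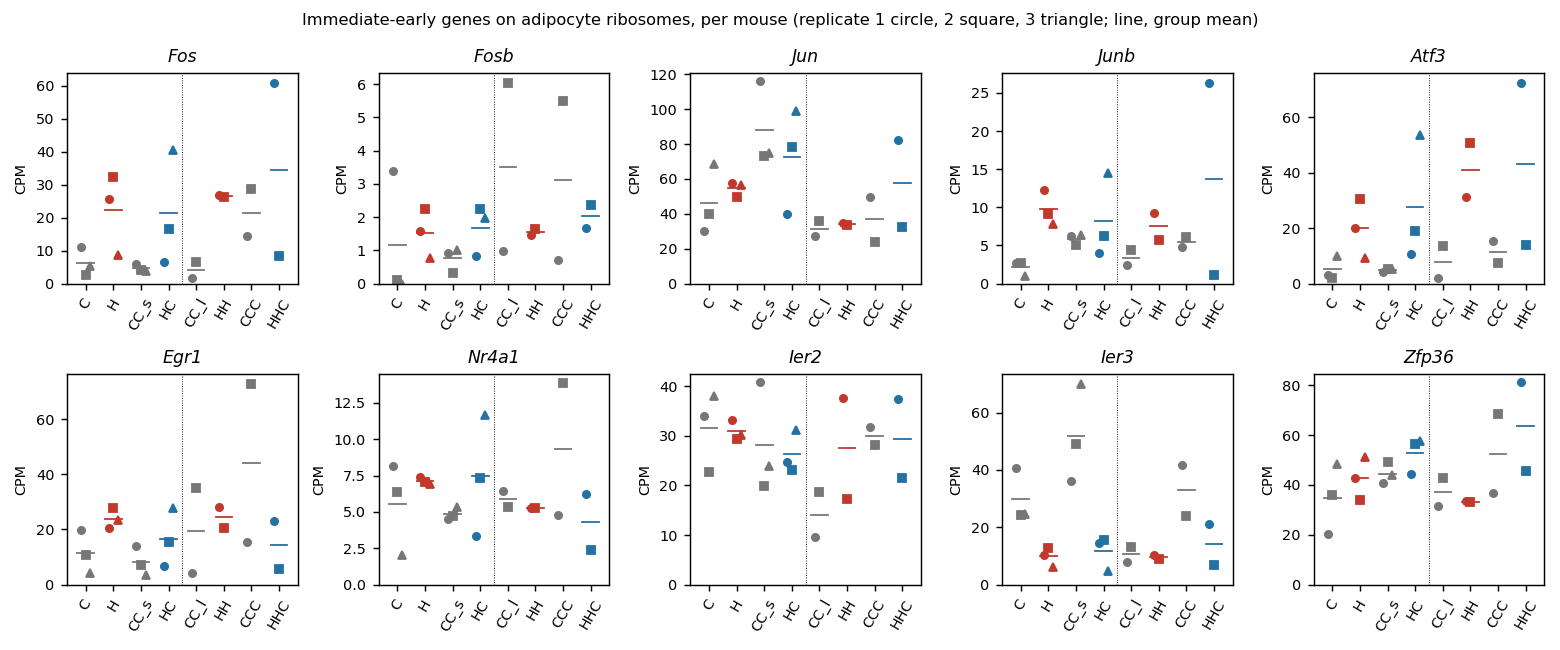
CPM of each immediate-early gene in each mouse (vertical axis, linear, from 0) by group (horizontal axis), with grey for chow, red for HFD and blue for chow after HFD, horizontal lines for group means and a dotted line between the arms. Ier3 lies below every chow mouse of the same age in H, HC and HHC, and the highest Fos and Atf3 values, 60.8 and 72.4 CPM, belong to HHC replicate 1.

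The median fitted log2 fold change of the 10 genes was 0.39 in H, 0.55 in HC, 0.22 in HH and 0.13 in HHC, beside medians over all tested genes of -0.15, 0.27, -0.23 and -0.06. The number of members above 0 was 8 of 10 in H, 7 in HC, 6 in HH and 5 in HHC, beside 42.8%, 64.1%, 42.5% and 43.3% of all tested genes. The interaction tests set the difference on HFD (H against C, HH against CC_l) beside the difference left after WL (HC against CC_s, HHC against CCC). These differences are called the H, HH, HC and HHC effects. No member passed these tests at an adjusted p under 0.05, where 0% of all genes passed for H minus HC and 0.815% for HH minus HHC. Groups without any overlap between mice were also counted. In H, 2 of 10 members lay wholly above C (Junb and Egr1) and 1 wholly below (Ier3), against 13.4% and 11.8% of all genes. In HC, 2 lay above (Fos and Atf3) and 1 below (Ier3), against 8.01% and 5.82%. In HH, 3 lay above (Fos, Junb and Atf3) and 1 below (Nr4a1), against 26.3% and 28.9%, and in HHC 0 lay above and 1 below (Ier3), against 8.49% and 20.3%.

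**Figure D2:**
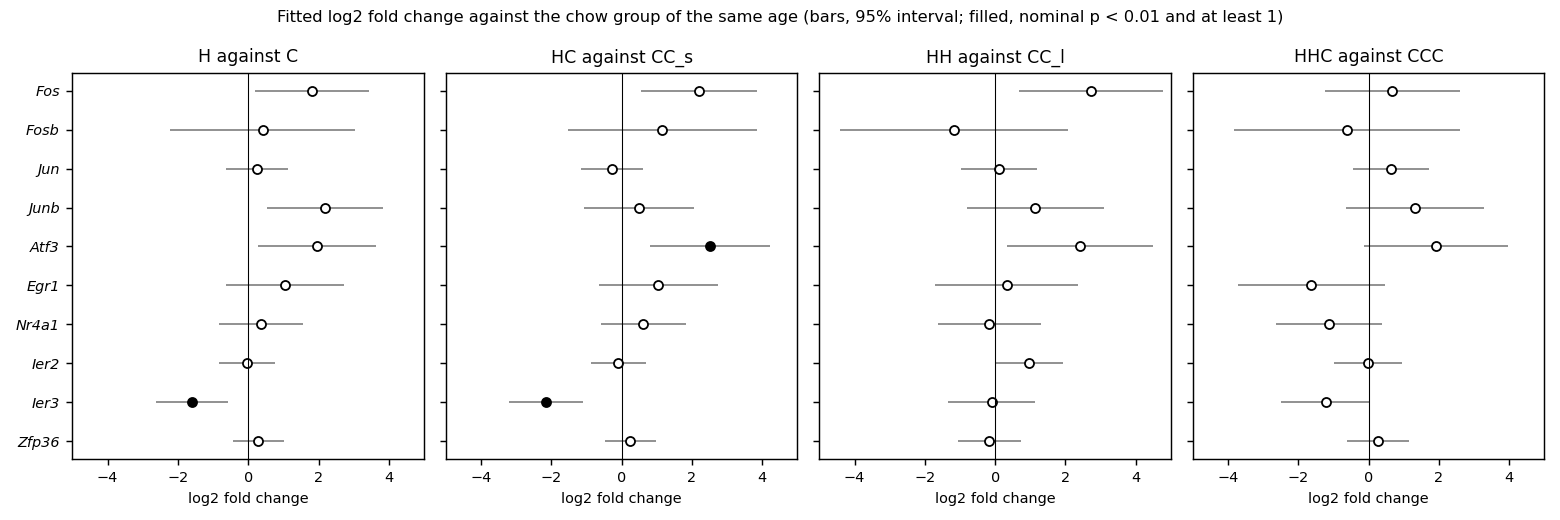
Fitted log2 fold change (horizontal axis) of the 10 genes against the chow group of the same age, with 95% intervals as bars and filled points for genes that passed the rule. Ier3 is filled in H and HC, Atf3 is filled in HC, and Atf3 is above 0 in all 4 comparisons with an interval that reaches -0.12 in HHC.

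Ier3, an early response gene linked to survival under NF-kB and ERK signalling, was the member that was lower. It is ENSMUSG00000003541, on chromosome 17 from 35821684 to 35822923 on the plus strand (mm10), and its promoter is printed above. In the C mice it stood at 40.5, 24.2 and 24.7 CPM, and in the H mice at 10.4, 12.8 and 6.24 CPM. Every H mouse was below every C mouse. The fitted log2 fold change was -1.60 (SE 0.49, 95% interval -2.64 to -0.57, adjusted p = 0.100, edgeR quasi-likelihood), about 0.330 of the control level. The call was lost without C replicate 1 (-1.27), H replicate 1 (-1.65) or H replicate 3 (-1.36). C replicate 1, the highest control, was the library with epididymal epithelium markers (1814 CPM).

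After WL the gap was larger in fitted size. Ier3 was 36.3, 48.9 and 70.1 CPM in CC_s and 14.5, 15.7 and 4.86 CPM in HC. Again no HC mouse reached a control mouse. The lowest of them was HC replicate 3, a library with spermatid markers (434 CPM). The log2 fold change was -2.15 (SE 0.50, 95% interval -3.20 to -1.09, adjusted p = 0.473 by edgeR), a level 0.226 of the control. It kept its call with each of the 6 mice left out in turn, at log2 fold changes from -2.42 to -1.78. The H effect minus the HC effect was 0.55 (95% interval -0.89 to 1.98, edgeR adjusted p = 0.847), so a difference between the effects was not shown.

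In the long arm Ier3 was 7.81 and 13.2 CPM in CC_l and 10.4 and 9.08 CPM in HH, and the HH mice lay between the controls. The log2 fold change was -0.10 (95% interval -1.35 to 1.14). The CC_l chow mice themselves were lower than every chow mouse of the other 3 ages, where Ier3 was between 23.9 and 70.1 CPM. CC_l replicate 1, at 7.81 CPM, was the library with the most spermatid markers (3114 CPM). In CCC Ier3 was 41.8 and 23.9 CPM and in HHC 21.3 and 6.89 CPM, so both HHC mice were below both controls. The log2 fold change of -1.23 (SE 0.60, 95% interval -2.49 to 0.03, edgeR adjusted p = 0.478) did not pass the rule, and without HHC replicate 1 it was -2.26.

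Atf3, a stress-induced transcription factor with a leucine zipper like Fos and Jun, moved the other way from Ier3. It is ENSMUSG00000026628, on chromosome 1 from 191170296 to 191218039 on the minus strand, and the RefSeq start used for the promoter lies inside that span. In CC_s it stood at 4.24, 5.16 and 5.20 CPM, and in HC at 10.7, 18.9 and 53.6 CPM. The controls were tightly grouped, and every HC mouse was above them, with HC replicate 3 far above the other two. The log2 fold change was 2.51 (SE 0.81, 95% interval 0.80 to 4.22, adjusted p = 0.536, edgeR quasi-likelihood), a 5.69-fold higher fitted level. The call was lost without HC replicate 3 (1.60) and without any 1 of the CC_s mice (2.42 to 2.56).

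On HFD, Atf3 was 3.27, 2.08 and 10.1 CPM in C against 20.2, 30.4 and 9.21 CPM in H. The highest control overlapped the lowest H mouse, and the log2 fold change was 1.95 (SE 0.80, edgeR adjusted p = 0.222), past the rule only when C replicate 3 was left out (2.90) among the leave-out fits. In the long arm it was 1.89 and 13.6 CPM in CC_l against 31.2 and 50.7 CPM in HH, with no overlap (log2 fold change 2.41, SE 0.99, edgeR adjusted p = 0.225). Without CC_l replicate 2 this value was 4.46. It was 15.3 and 7.47 CPM in CCC against 72.4 and 13.9 CPM in HHC, a log2 fold change of 1.92 (SE 0.97, edgeR adjusted p = 0.499) that was 0.28 without HHC replicate 1. The estimates lay between 1.92 and 2.51 in the 4 comparisons, but only that in HC passed, and neither interaction showed a difference (-0.56, 95% interval -2.86 to 1.74, and 0.49, 95% interval -2.31 to 3.29).

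Within H, HC, HH and HHC, mice with higher macrophage sums had higher Atf3, and CC_l went the same way. In C, CC_s and CCC the mouse with the lowest macrophage sum had the highest Atf3. These were C replicate 3 (10.1 CPM), CC_s replicate 3 (5.20 CPM) and CCC replicate 1 (15.3 CPM). H replicate 3, with the lowest macrophage sum of the HFD mice (551 CPM), also had the lowest Atf3 of them, and HC replicate 3 had the highest Atf3 and the highest macrophage sum (1312 CPM) of its group. HHC replicate 1 exceeded HH replicate 2 in Atf3 (72.4 against 50.7 CPM) at a lower macrophage sum (1255 against 4076 CPM). HC replicate 3 also had the highest endothelial, progenitor and lymphocyte marker sums of the HC mice. The part of any of these markers in the Atf3 difference was not tested.

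**Figure D3:**
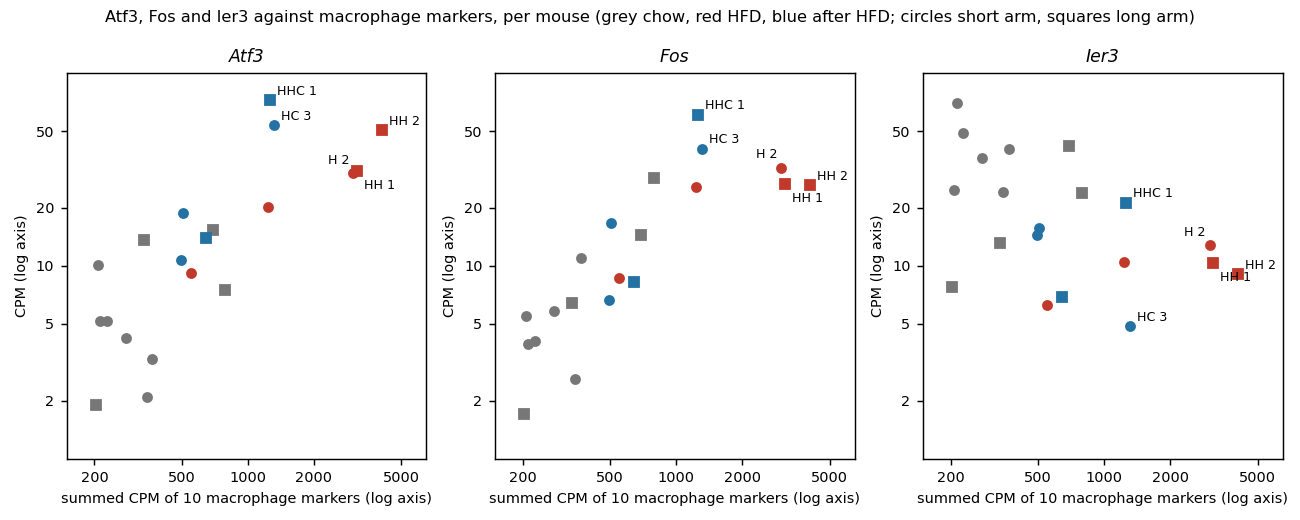
CPM of Atf3, Fos and Ier3 (vertical axes, log) against the summed CPM of 10 macrophage markers (horizontal axes, log) in each of 20 mice, grey for chow, red for HFD, blue for chow after HFD, circles for the short arm and squares for the long arm. HFD and HC mice with high sums have high Atf3 and Fos, HC replicate 3 and HHC replicate 1 lie highest at sums of 1312 and 1255 CPM, and Ier3 is low in most of these mice.

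Fos, the AP-1 subunit whose name stands for the whole class, had positive estimates in all 4 comparisons but was called in none by edgeR in the chosen design. It is ENSMUSG00000021250, on chromosome 12 from 85473890 to 85477273. In C it was 11.001, 2.58 and 5.46 CPM, and in H 25.7, 32.4 and 8.64 CPM, with H replicate 3 below C replicate 1. The log2 fold change was 1.81 (SE 0.77, edgeR adjusted p = 0.237). In CC_s it was 5.82, 4.10 and 3.93 CPM and in HC 6.67, 16.6 and 40.6 CPM, without overlap, although HC replicate 1 was close to the highest control. That estimate of 2.21 (SE 0.78, adjusted p = 0.536) missed the rule narrowly, and it passed when HC replicate 1 was left out (2.63). It also passed in an edgeR fit of HC and CC_s alone (2.21). Without the filter on low counts, edgeR called Fos in H (1.82), HC (2.36) and HH (2.85).

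In CC_l Fos was 1.71 and 6.42 CPM, and in HH 26.7 and 26.2 CPM. The HH mice were alike and well above both controls, with a log2 fold change of 2.72 (SE 0.98, 95% interval 0.66 to 4.77, adjusted p = 0.162), which passed without CC_l replicate 2 (3.98). In CCC it was 14.5 and 28.7 CPM and in HHC 60.8 and 8.29 CPM, so the HHC mice lay on either side of the controls. The log2 fold change of 0.68 (SE 0.91) became -1.38 without HHC replicate 1. HH minus HHC was 2.04 (95% interval -0.71 to 4.79, edgeR adjusted p = 0.471).

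Junb, an AP-1 subunit that pairs with Fos proteins, was higher in every H mouse (12.3, 9.08 and 7.77 CPM) than in any C mouse (2.72, 2.68 and 0.985 CPM). Its log2 fold change of 2.19 (SE 0.78, 95% interval 0.54 to 3.84, adjusted p = 0.159) missed the p threshold. DESeq2 called it (2.06), as did edgeR fitted to H and C alone (2.09). After WL it was 6.22, 5.08 and 6.34 CPM in CC_s and 4.05, 6.26 and 14.5 CPM in HC, with overlap (0.49, SE 0.75, edgeR adjusted p = 0.887). The H effect exceeded the HC effect by 1.70 (95% interval -0.54 to 3.94, edgeR adjusted p = 0.567), a difference that was not shown beyond error.

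In HH Junb was 9.30 and 5.72 CPM against 2.38 and 4.45 CPM in CC_l, and both HH mice were higher (1.14, SE 0.93, edgeR adjusted p = 0.539). In HHC it was 26.3 and 1.08 CPM against 4.78 and 6.15 CPM in CCC. These were the highest and the second lowest values of all 20 mice, in 1 group, and the log2 fold change of 1.32 (SE 0.93) turned to -2.34 without HHC replicate 1, and was 2.27, past the rule, without HHC replicate 2. Exons of Junb, on chromosome 8 from 84974484 to 84978718, overlap those of Prdx2 on the opposite strand, and since the strand setting of the counting is not given, reads of the 2 genes cannot be told apart here if strand was not used.

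Jun and Fosb showed no call. Jun, the main partner of Fos in AP-1 (chromosome 4, 95049034 to 95052222, overlapped by its antisense gene Junos), was between 30.4 and 68.5 CPM in C and between 49.5 and 57.8 CPM in H (log2 fold change 0.24, 95% interval -0.64 to 1.13). It was between 73.2 and 116 CPM in CC_s and between 39.8 and 99.1 CPM in HC (-0.28, -1.17 to 0.60), 27.5 and 35.6 against 34.8 and 33.6 CPM in CC_l and HH (0.12, -0.97 to 1.20), and 49.8 and 24.0 against 82.3 and 32.5 CPM in CCC and HHC (0.64, -0.45 to 1.72). In each comparison the groups overlapped.

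Fosb (chromosome 7, 19302696 to 19310051), a Fos relative known for lasting forms in neurons, was the member with the lowest levels, and 2 of the C libraries lay at or under 3 counts. It was 3.38, 0.0992 and 0 CPM in C, where a count of 3 corresponds to between 0.103 and 0.175 CPM in these libraries, and 1.60, 2.23 and 0.768 CPM in H. The control mice spanned the H mice (0.41, SE 1.25), and without C replicate 1 the value was 4.85, computed against libraries at or under 3 counts and so dependent on 1 mouse. In HC it was 0.825, 2.25 and 1.98 CPM against 0.927, 0.328 and 1.01 CPM in CC_s (1.16, SE 1.27). In the long arm the chow mice differed among themselves, at 0.976 and 6.02 CPM in CC_l and 0.717 and 5.49 CPM in CCC, and HH (1.46 and 1.63 CPM) and HHC (1.68 and 2.37 CPM) lay between them.

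Egr1, a zinc-finger factor induced by ERK signalling and by insulin (chromosome 18, 34859823 to 34864984), was 19.9, 10.8 and 4.03 CPM in C and 20.7, 27.8 and 23.4 CPM in H. The H mice lay just above the highest control (1.05, SE 0.80, edgeR adjusted p = 0.530). In CC_s it was 13.9, 6.96 and 3.30 CPM and in HC 6.73, 15.3 and 27.8 CPM, with overlap (1.04, SE 0.80). In HH the 28.1 and 20.7 CPM lay between the CC_l values of 4.09 and 35.0 CPM. In HHC it was 23.0 and 5.71 CPM against 15.4 and 72.9 CPM in CCC, with overlap (-1.63, SE 0.99, edgeR adjusted p = 0.575), and CCC replicate 2 had the highest Egr1 of all mice.

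Nr4a1, an orphan nuclear receptor induced by cyclic AMP (chromosome 15, 101254269 to 101274795), was 8.17, 6.35 and 2.06 CPM in C and 7.38, 7.07 and 6.91 CPM in H (0.37, 95% interval -0.84 to 1.57). In HC it was 3.37, 7.31 and 11.7 CPM around 4.50, 4.75 and 5.32 CPM in CC_s (0.62, -0.59 to 1.82). In HH it was 5.29 and 5.27 CPM against 6.47 and 5.37 CPM in CC_l, so that the groups were apart by less than the spread of the controls (-0.17, -1.64 to 1.31). In HHC it was 6.20 and 2.37 CPM against 4.78 and 13.9 CPM in CCC (-1.13, SE 0.71, edgeR adjusted p = 0.588).

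Ier2 and Zfp36 were the steadiest members. Ier2, a nuclear regulator induced by growth factors (chromosome 8, 84661331 to 84662852), was between 22.8 and 38.1 CPM in C and between 29.5 and 33.2 CPM in H (-0.03, 95% interval -0.82 to 0.75), and between 19.9 and 40.9 CPM in CC_s and between 23.2 and 31.1 CPM in HC (-0.10, -0.88 to 0.68). In HH it was 37.7 and 17.3 CPM against 9.58 and 18.6 CPM in CC_l, with overlap (0.97, SE 0.46, edgeR adjusted p = 0.289), and in HHC 37.5 and 21.4 CPM against 31.8 and 28.1 CPM (-0.02, -0.98 to 0.94). In H and HC the intervals stayed within 1 on the log2 scale in either direction.

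Zfp36, the RNA-binding protein tristetraprolin that speeds decay of cytokine and immediate-early mRNAs (chromosome 7, 28376784 to 28380253), was 20.5, 35.8 and 48.6 CPM in C and 42.9, 34.1 and 51.3 CPM in H (0.29, 95% interval -0.43 to 1.01). It was between 40.8 and 49.2 CPM in CC_s and between 44.5 and 57.5 CPM in HC (0.25, -0.48 to 0.97), 31.7 and 42.8 against 33.4 and 33.1 CPM in CC_l and HH (-0.16, -1.05 to 0.72), and 36.7 and 68.4 against 81.5 and 45.7 CPM in CCC and HHC (0.27, -0.61 to 1.16). HHC replicate 1 again gave the highest value of all 20 mice.

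Levels were set beside each other only per kilobase of exon, in chow mice of both chow diets pooled. Over the 10 chow mice the median was 27.0 CPM per kilobase for Ier3 (range 6.90 to 62.0), 17.1 for Ier2, 14.0 for Jun and 12.0 for Zfp36 (5.90 to 19.7). Below them Egr1 stood at 2.76, Atf3 and Fos at 2.40 each, Junb at 2.01 and Nr4a1 at 1.52, and Fosb at 0.152 CPM per kilobase was last. The range of each member over the 10 mice overlapped those of its neighbours in this order, also from Zfp36 to Egr1 (0.735 to 16.3). Within each chow mouse, however, Zfp36 was above Egr1, as in C replicate 1 (5.90 against 4.45) and CCC replicate 2 (19.7 against 16.3). Nr4a1 was likewise above Fosb in every chow mouse. Between the other neighbours the order differed from mouse to mouse. Ier3, the member with the highest median level on chow, was the one called lower in H and HC, and it was not called in HH or HHC.

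The members also differed in how far mice of 1 group spread. The biological coefficient of variation was 0.319 for Zfp36, 0.342 for Ier2, 0.377 for Jun, 0.423 for Ier3 and 0.504 for Nr4a1, and then 0.620 for Fos, 0.632 for Junb, 0.637 for Atf3, 0.652 for Egr1 and 0.978 for Fosb. The median of the 10 was 0.562 beside 0.595 over all tested genes. Over all 20 mice the highest value was 38.3 times the lowest for Atf3, 35.6 for Fos, 26.7 for Junb and 22.1 for Egr1, but 3.98 for Zfp36.

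The high and low values fell in the same mice. As a deviation from the group mean, HHC replicate 1 was above its partner in 9 of 10 members, CC_l replicate 2 in 9, and HC replicate 3 was above the group mean in 9, the exception being Ier3. HC replicate 1 was above its group mean in 1 of 10. Over the 45 pairs of members the median Pearson r of these deviations was 0.34 (n = 20 mice, 40 pairs above 0), and it was 0.22 without the 2 HHC mice. The closest pair was Fos and Atf3 (r = 0.76, Spearman rho = 0.67), then Fos and Junb (r = 0.73, rho = 0.71) and Fos and Egr1 (r = 0.73, rho = 0.71), and the lowest was Fosb and Jun (r = -0.33, rho = -0.21). These points share library, depth and scaling, and in groups of 2 the deviations mirror each other, so they are given as a description. HHC replicate 1 was the shallowest library and had the highest lymphocyte marker sum (89.3 CPM, against at most 35.9 elsewhere), and HC replicate 3 had the lowest sum of 10 adipocyte markers, 20446 CPM.

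**Figure D4:**
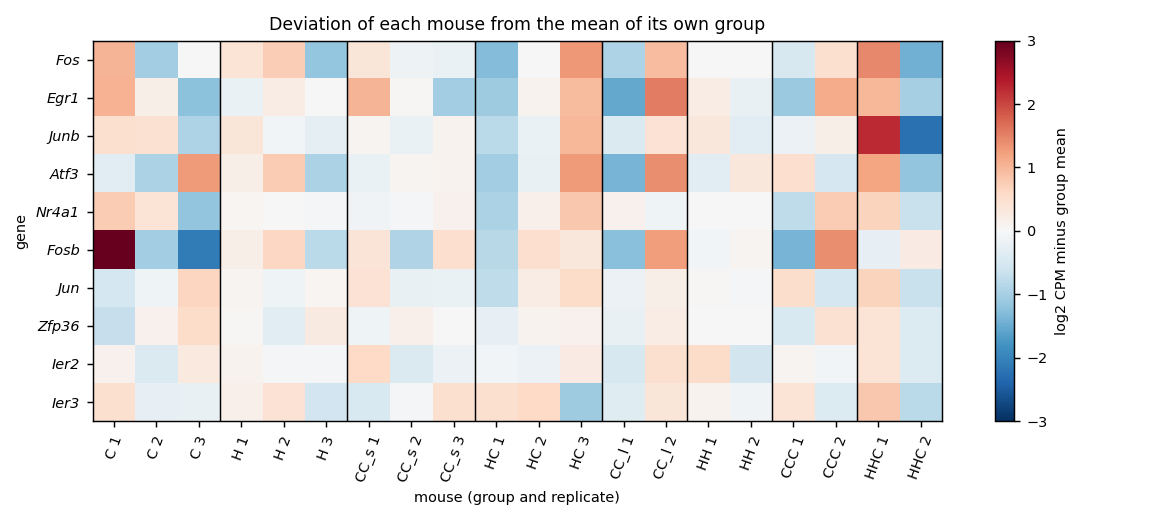
Deviation of log2 CPM from the mean of the mouse's own group (colour, red above and blue below) for the 10 genes (rows) in 20 mice (columns, black lines between groups). HHC replicate 1 and HC replicate 3 are red in 9 of 10 rows each, HHC replicate 2 and HC replicate 1 are mostly blue, and the row of Fos resembles those of Egr1, Junb and Atf3.

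Among 16254 protein-coding genes, those whose deviations were most like the mean standardized deviation of the 10 members were Parp14, an interferon-responsive ADP-ribosyltransferase (r = 0.95, rho = 0.91), Msx1, a homeobox factor (r = 0.92, rho = 0.90), H2-Ob, a class II antigen-presentation gene (r = 0.92, rho = 0.85), Bcl2, the survival factor (r = 0.92, rho = 0.90), and Ddi2, a protease (r = 0.91, rho = 0.83), all over 20 mice. Without the 2 HHC mice, the farthest from the median, r was 0.92, 0.89, 0.85, 0.88 and 0.81. They were picked as the highest of all genes ranked, so these values carry no test.

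Other immediate-early genes, 42 listed and 41 tested, gave a wider view of the same programme. In H, 2 were higher and 0 lower, in HC 0 and 0, in HH 7 higher and 0 lower, and in HHC 1 higher and 1 lower, with median log2 fold changes of 0.55, 0.33, 0.76 and 0.22. The shares of all genes called higher were 3.57%, 1.57%, 4.92% and 0.447%, and those called lower 2.92%, 0.172%, 1.88% and 2.67%. In HC, where edgeR called 0, 4 of 41 had an unadjusted p under 0.05 and DESeq2 called 1 higher and 1 lower. In HH, DESeq2 called 7 higher and 0 lower, where it called 11% of all genes. A DESeq2 adjusted p under 0.05 was reached by 7 in HH, beside 8.26% of all genes. Plk2, a stress-induced kinase, rose in H (57.0, 81.5 and 42.3 CPM against 16.9, 19.4 and 5.10 CPM, log2 fold change 2.13, SE 0.57, adjusted p = 0.0608) and in HH (83.4 and 59.8 against 8.60 and 8.64 CPM, 3.05, SE 0.72, adjusted p = 0.0376). Mafk, a small Maf factor, rose in H (19.5, 18.4 and 15.0 CPM against 6.70, 9.33 and 5.78 CPM, 1.28, SE 0.32, adjusted p = 0.0490). For both genes every H mouse was above every C mouse, and the call of Mafk was lost without the filter (1.26).

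In HH, Dusp1, the phosphatase that shuts off MAP kinases, rose to 163 and 91.0 CPM from 17.5 and 18.5 CPM in CC_l (2.82, SE 0.59, adjusted p = 0.0264). In HHC it was 42.4 and 20.1 CPM against 50.5 and 67.7 CPM in CCC, and the HH effect exceeded the HHC effect by 3.74 (SE 0.81, 95% interval 2.03 to 5.45, adjusted p = 0.0396), the only gene of the list past the interaction threshold in edgeR (DESeq2 gave 3). This call was lost without any 1 of 6 mice among 8 left out in turn. The other calls in HH were Sgk1, a hormone-responsive kinase (2.55), Ccn1, a matricellular protein (2.42), Dusp6, an ERK phosphatase (2.08), Myc (1.99) and Klf10 (1.77). None of these 5 had an edgeR adjusted p under 0.05, and each was lost without CC_l replicate 1 and also without HH replicate 1. Klf10 was also lost in a fit of HH and CC_l alone (1.85). Summed over the 42 listed genes, CC_l had 975 and 1238 CPM, and the other chow mice had 1244 to 2591 CPM. Klf10 in HH (77.3 and 39.1 CPM) lay among the other chow mice (36.8 to 100 CPM). In CC_l it was lower (12.1 and 22.2 CPM). Dusp1 in CC_l was also below the other chow mice (27.9 to 85.9 CPM), and both HH mice were above them. The part of the low CC_l levels in these calls was not tested. The macrophage, endothelial and progenitor markers rose in the same HH libraries, and their part was not tested.

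In HHC, Irf1, an interferon-response factor, was called higher (2.15, SE 0.69, adjusted p = 0.285) on 1 mouse, with 320 CPM in HHC replicate 1 and 29.7 CPM in HHC replicate 2 against 40.1 and 38.5 CPM in CCC, and was -0.41 without HHC replicate 1. That call was also lost without either CCC mouse and in a fit of HHC and CCC alone (2.32). Gadd45g, a growth-arrest gene, was lower (39.7 and 36.8 against 156 and 84.8 CPM, -1.65, SE 0.53, edgeR adjusted p = 0.285), a call lost without either HHC mouse or CCC replicate 1, and in a fit of HHC and CCC alone (-1.52).

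Of 24 upstream kinases and factors (MAP kinases, CREB and serum response factors and their partners), 0 were called in H, HC or HHC, where 2, 0 and 0 had an unadjusted p under 0.05 in edgeR and DESeq2 called 0. In HH, Elk3, a ternary complex factor, rose (69.8 and 38.1 against 7.93 and 13.0 CPM, 2.37, SE 0.79, edgeR adjusted p = 0.133) and Map2k7, the kinase that activates JNK, fell (18.7 and 18.2 against 49.4 and 41.8 CPM, -1.31, SE 0.42, edgeR adjusted p = 0.117). Both calls were lost without CC_l replicate 1, CC_l replicate 2 or HH replicate 1, and that of Map2k7 also without HH replicate 2. Elk3 also missed the rule with RLE scaling (2.37) and halved counts (2.35), and Map2k7 without the filter (-1.23). Of 12 heat-shock genes, 1 was called, Hspb1, a small chaperone, which rose in H from 12.4, 20.7 and 33.7 CPM to 229, 99.6 and 162 CPM (2.87, SE 0.58, adjusted p = 0.0159), and in HC, HH and HHC 0 were called, with 0 at an unadjusted p under 0.05 in edgeR and 0 called by DESeq2. In H, 5 of the 12 had positive and 7 negative fold changes, with a median of -0.06.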

How the data were processed

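Libraries of mRNA bound to GFP-tagged ribosomes from epiAT of 20 mice were prepared with an oligo(dT) primer and template switching. Per the labels, reads were checked with FastQC (0.11.9), trimmed with Trim Galore (0.6.6) and aligned with HISAT2 (2.2.1) to mm10, and the authors counted them per gene with featureCounts (Subread 2.0.1). The annotation, strand setting and treatment of read pairs are not given in the sources used here. The deposited values are whole counts, not normalized. Of the nonzero counts, 74.4% to 89.2% per library were even, so both ends of pairs may have been counted.

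Identifiers were matched to GENCODE vM21 symbols (45143 of 46078). Counts of all 20 libraries were fitted with edgeR (4.0.16, R 4.3.3; TMM, filterByExpr, quasi-likelihood F test, 8 group means), which kept 21464 genes at a common dispersion of 0.462. DEGs were genes past an unadjusted p of 0.01 whose log2 fold change was 1 or more in size, with Benjamini-Hochberg values over all genes. Log2 CPM used a prior count of 2. The depth of 10710277 to 36738954 counts put 3 counts at 0.0817 to 0.280 CPM, a floor for counting error only. CPM per kilobase used merged exon lengths. Mouse mm10 positions come from the same annotation.

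Samples were grouped by the labels. The alternatives were DESeq2 (1.42.0), RLE scaling, no filter, fits of the compared groups only, a replicate block, halved counts, another threshold, and each mouse left out in turn. The edgeR test was tried on simulated data for H against C only, and the alternatives were not. Named genes were the 10 members, listed genes meeting the DEG rule, and the 5 protein-coding genes most correlated with the members. The members and lists were chosen with earlier results of these data known. Cyr61 and Ctgf were matched under their other symbols, Ccn1 and Ccn2.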

Additional observations from a re-analysis of the deposited data

Results flagged for a closer look

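Dusp1, the MAP kinase phosphatase from the list of other immediate-early genes, was the only named gene that passed an interaction test. It was the test of the HH effect against the HHC effect, each taken against its own chow control. The HH effect minus the HHC effect was 3.74 on the log2 scale (SE 0.81, edgeR quasi-likelihood adjusted p = 0.0396), with both HH mice above and both HHC mice below their controls. The difference was 3.58 with RLE scaling (edgeR adjusted p = 0.0797), 3.52 when the fit held no other groups (adjusted p = 0.160) and 3.53 with halved counts (adjusted p = 0.0608), so it missed the threshold in each at a similar size. With a replicate block it was 3.77 (adjusted p = 0.0894). Of the 10 macrophage markers, 2 passed the same interaction test, Csf1r (3.70, adjusted p = 0.0329) and Cd14 (4.17, adjusted p = 0.0369). Among the 6 endothelial markers 3 passed it, and among the 6 adipocyte progenitor markers 1. The median differences were 3.45 for macrophage, 5.10 for endothelial and 2.85 for progenitor markers. The part of these markers in the Dusp1 difference was not tested. The CC_l controls had the lowest Dusp1 of the chow mice (17.5 and 18.5 CPM), and the part of this was not tested either.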

How the results depend on the processing

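Of 360 member values under alternatives other than leaving out a mouse, 325 kept their direction and side of the rule, 20 changed sign, 14 passed only under the alternative and 1 failed only there. Of 400 leave-out values, 333 kept both, 53 changed sign, 7 passed only then and 7 failed only then. The sign changes were of members that were not called. The causes were not tested. For the listed genes, under alternatives chosen after seeing the data, 73 of 90 values kept their call, and of 70 leave-out values 39 kept it, 30 failed the rule and 1 (Irf1, -0.41 to 3.03) changed sign. In the leave-out fits of the long arm 1 group holds 1 mouse, which is assumed to vary like the other groups.

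Members called in H were 1 in the chosen design, 2 with DESeq2, 4 without the filter, 2 with only the compared groups, 0 at adjusted p under 0.05, and 0 to 2 with a mouse left out. In HC they were 2, and 0 at adjusted p under 0.05 and 1 to 3 with a mouse left out. In HH they were 0, and 2 with DESeq2, 2 without the filter and 0 to 2 with a mouse left out, and in HHC 0, and 2 without the filter and 0 to 1 with a mouse left out. Over all genes, calls in H were 1392, 2163 with DESeq2, 2492 without the filter, 455 at adjusted p under 0.05 and 757 to 1816 with a mouse left out. In HC they were 374, and 727, 1764, 0 and 160 to 597 in the same order, and 243 with only the compared groups. In HH they were 1458, and 2309, 2879, 445 and 569 to 1306. In HHC they were 669, and 1185, 1266, 0 and 138 to 1194, and 218 with only the compared groups. The H minus HC interaction gave 0 genes, 369 with DESeq2, 1403 without the filter and 641 at a nominal p under 0.01 with a difference of at least 1, and the HH minus HHC interaction 175, and 1114, 1266 and 1254 in the same order, 21 with RLE scaling, 99 with halved counts, 0 with only the compared groups and 0 to 395 with a mouse left out. RLE scaling moved the median over all genes of that interaction by -0.15.

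Sharing a replicate number did not mean that mice deviated together (r of deviations -0.17, 0.19 and 0.19 in H and C, -0.28, 0.06 and -0.24 in HC and CC_s, -0.19 in HH and CC_l, and -0.26 in HHC and CCC), and the numbers were not taken as pairs. With a replicate block, members called in HC fell to 1, Atf3 having 2.26, and calls over all genes were 204 in HC, 375 in HHC and 1 in the HH minus HHC interaction. Elk3, Map2k7, Myc and Klf10 in HH and Irf1 and Gadd45g in HHC also lost their calls with the block. Under the replicate block the H minus HC difference was 0.038 for Atf3 and -0.088 for Egr1, and the HH minus HHC difference 0.046 for Junb.

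Other sign changes were small. Ier3 in HH was 0.0054 without the filter. Ier2 in HHC was 0.12 with DESeq2, 0.12 with RLE, 0.035 without the filter, 0.12 with only the compared groups and 0.13 with halved counts. The H minus HC difference of Egr1 was -0.15 with DESeq2, -0.15 with RLE, -0.17 without the filter and -0.082 with only the compared groups. That of Ier2 was -0.0043 with DESeq2, -0.0039 with RLE and -0.014 without the filter, and that of Zfp36 -0.0354, -0.0350 and -0.0386, and -0.0067 with only the compared groups.

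With a mouse left out, values in H ran from -0.18 to 4.85 for Fosb, -0.23 to 0.12 for Ier2 and -0.029 to 0.77 for Nr4a1. In HC they ran from -0.58 to 0.011 for Jun, -0.19 to 0.82 for Junb and -0.30 to 0.27 for Ier2. In HH they ran from -1.95 to 0.69 for Fosb, -0.051 to 0.34 for Jun, -0.51 to 2.61 for Egr1, -0.43 to 0.35 for Ier3 and -0.36 to 0.10 for Zfp36. In HHC they ran from -1.38 to 1.50 for Fos, -1.44 to 1.49 for Fosb, -0.19 to 1.25 for Jun, -2.34 to 2.27 for Junb, -0.49 to 0.33 for Ier2 and -0.21 to 0.79 for Zfp36. H minus HC ran from -0.82 to 0.47 for Fos, -1.33 to 3.77 for Fosb, -0.64 to 0.75 for Egr1, -0.997 to 0.39 for Atf3, -0.30 to 0.27 for Ier2, -0.64 to 0.23 for Nr4a1 and -0.11 to 0.36 for Zfp36. HH minus HHC ran from -2.64 to 1.31 for Fosb, -1.12 to 0.32 for Jun, -1.11 to 3.50 for Junb, -0.32 to 2.54 for Atf3 and -0.93 to 0.064 for Zfp36.

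With 2 or 3 mice a group and a common biological coefficient of variation of 0.680, the intervals of Fos, Junb, Atf3 and Egr1 span several log2 units, and Fosb lies near 3 counts in 2 of the C libraries.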
